A study of Homo sapiens with 6 samples.

Results

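Glycolysis converts glucose to pyruvate and lactate in the cytosol. Its carriers and most of its enzymes are also targets of the hypoxia-inducible factor HIF, whose alpha subunit is made continuously and destroyed while oxygen is plentiful. Macrophages rely on glycolysis when activated, and the factor itself is controlled mainly at the protein level. The 35 genes described here are 2 glucose carriers, 18 core enzymes from hexokinase to lactate dehydrogenase, 4 further genes of flux control and lactate export, 10 HIF targets outside the pathway and HIF1A. They were chosen by symbol. All 35 have a row among the 17513 genes deposited, and all 35 were among the 13555 genes abundant enough to test.

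The series text describes macrophages made from THP1 cells, a leukemia line of human monocytes, which received medium conditioned by KYSE150 esophageal squamous carcinoma cells for 48 h. The medium came from KYSE150 cells with shSPP1#2, a hairpin directed at SPP1 (osteopontin), or with shNC, the comparison arm. There were 3 libraries of polyadenylated RNA in each group, and 1 SPP1 hairpin and 1 tumor line were used. The sample labels name KYSE150 as the source, so the cell type was checked first. Of 15 macrophage markers, 13 reached 1 FPKM (a level per gene length and per library total) in all 6 libraries; CYBB, at 0.57 to 0.93 FPKM, and MRC1, at 0.01 to 0.03 FPKM, did not. Of 16 squamous epithelial markers 1 did (KRT15, 2.75 to 4.01 FPKM), and 9 stayed below 0.1 FPKM in every library. The summed squamous markers were 4.73 to 6.21 FPKM in the shNC group and 4.48 to 5.04 FPKM in the shSPP1#2 group. SPP1 itself measured 1890.4 to 2075 FPKM in the macrophages of shNC medium and 1932 to 2061 FPKM in those of shSPP1#2 medium, which does not check the knockdown in the hairpin-bearing cells. Whether replicates are separate cultures is not said in the labels; p-values therefore describe the spread among these libraries alone, possibly a technical one.

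Libraries held 18113591 to 20626346 estimated counts. Both libraries numbered replicate 2 stood at one end of the first principal component, which held 33.3% of the variance (9.87 for shNC and 7.19 for shSPP1#2, against -7.37 to 0.55 for the others). They also had the lowest total of their group, 18113591 and 20202142. How many fold changes turned on single libraries is given with the comparison of the media, and several genes have their values without them as well.

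Glycolytic transcripts were among the more abundant RNAs of these cells, with the highest levels from aldolase onward. Of the 35 genes 13 averaged at least 100 FPKM (22 on the TPM scale, where each library is rescaled to the same total), 29 at least 10 FPKM and only PFKM and EGLN3 less than 1 FPKM. Summed over the 35 genes, levels came to 1.45% to 1.60% of all listed FPKM in a library. The 3 most abundant were GAPDH (glyceraldehyde-3-phosphate dehydrogenase) with a mean of 1445 FPKM, the aldolase ALDOA with 1054 FPKM and the pyruvate kinase PKM with 780.4 FPKM. ENO1, the main enolase, followed at 559.9 FPKM. Hexokinases, which trap glucose in the cell, and phosphofructokinases, the committed step, were each below 100 FPKM per gene.

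**Figure D1:**
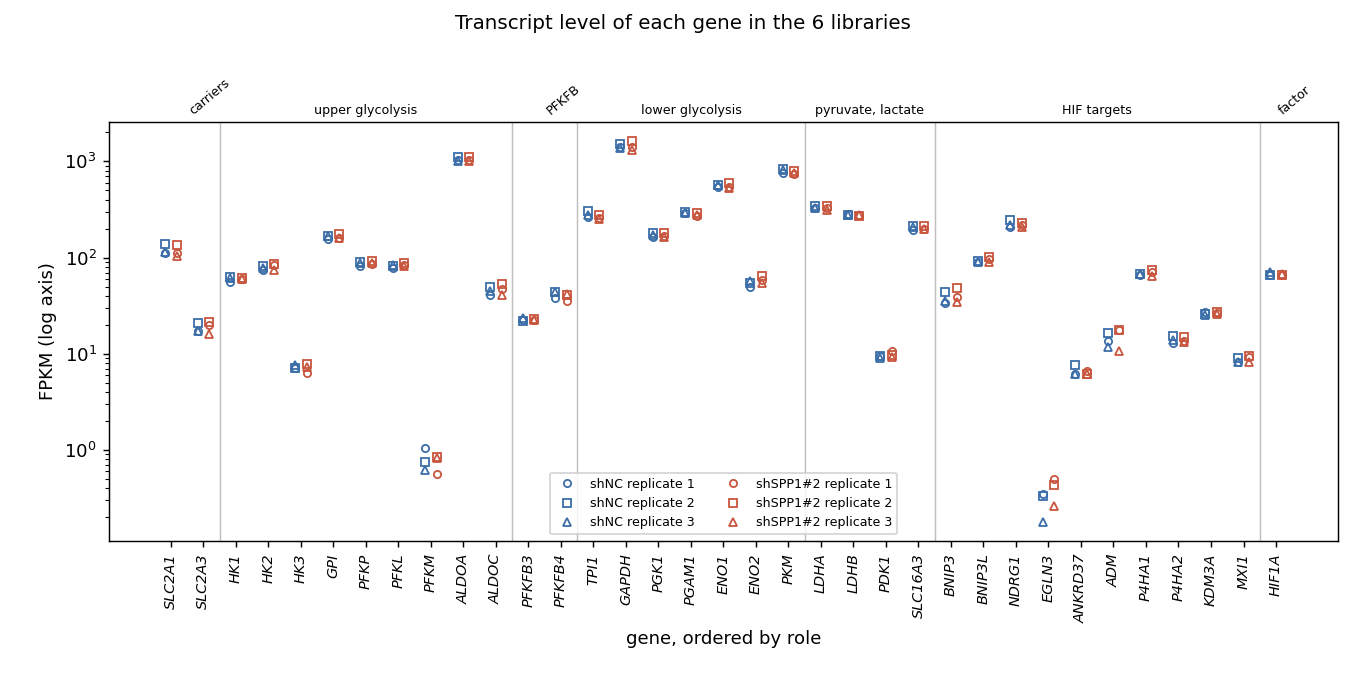
FPKM (log axis) of the 35 genes in the 6 libraries, ordered by role; blue symbols are shNC medium, red symbols shSPP1#2 medium, and the symbol shape gives the replicate number. Levels span from below 1 FPKM for PFKM and EGLN3 to 1054 FPKM for ALDOA and 1445 FPKM for GAPDH, while the 2 groups of a gene lie close together.

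Where several genes encode the same step, the mix of isoforms was nearly fixed over the libraries. As a share of the summed FPKM of the step, HK2 (the inducible hexokinase) held 52.9% to 55.9%, HK1 39.4% to 42.0% and HK3 4.28% to 5.25%. Phosphofructokinase came in nearly equal parts from the platelet gene PFKP (50.2% to 51.9%) and the liver gene PFKL (47.6% to 49.5%), with at most 0.65% from the muscle gene PFKM. ALDOA held 95.5% to 96.2% of aldolase and SLC2A1, the widely expressed glucose carrier, 84.95% to 86.8% of the 2 carriers. LDHA, the subunit that favors lactate formation, made up 53.3% to 55.8% and LDHB the rest. PFKFB4 exceeded PFKFB3 in every library, with 61.1% to 66.7% of the pair; both make or break down the allosteric activator of phosphofructokinase.

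The enolase mix was the exception, since its groups did not overlap. ENO2, the enolase first known from neurons, held 8.41%, 8.68% and 9.02% of enolase FPKM with shNC medium (replicates 1, 2 and 3) and 9.76%, 9.61% and 9.26% with shSPP1#2 medium. The mean was 8.70% ± 0.30 (SD, n = 3) against 9.54% ± 0.26 (SD, n = 3), a gap of 0.84 percentage points that ran from 0.694 to 0.995 with single libraries left out. It was 1 of 7 steps examined and was not tested.

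**Figure D2:**
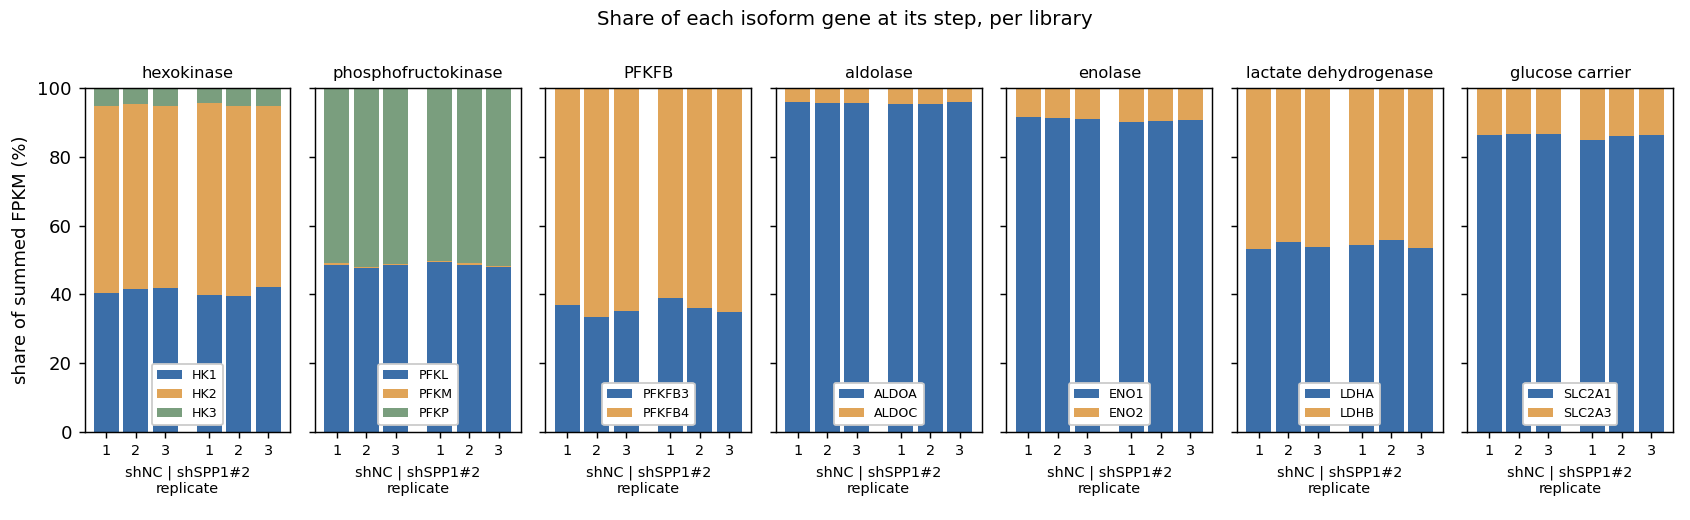
Stacked bars give each gene's share (%) of the summed FPKM of its step in each of the 6 libraries, with shNC replicates on the left and shSPP1#2 replicates on the right of each panel. The proportions hardly move between libraries; HK2 stays between 52.9% and 55.9% of hexokinase and ENO2 between 8.41% and 9.76% of enolase.

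HIF binds DNA at a short core word, ACGTG or GCGTG. Promoter windows from 250 bases before to 50 after a RefSeq start (GRCh38.p14) were available for 32 of the 35 genes. Either word, on either strand, occurred in 40 of 62 such windows (64.5%), against 48.4% of all 35116 windows in the table. Core enzymes had it in 23 of 38 windows (60.5%) and HIF targets outside the pathway in 8 of 11 (72.7%). Several windows can belong to 1 gene. Counted by gene, 28 of 32 (87.5%) had it in at least 1 window, against 52.4% of all genes in the table. The 32 genes had 1.94 windows each on average, against 1.29 for all genes. By gene it was 16 of 18 core enzymes (88.9%) and 6 of 8 HIF targets (75%), with 2.11 and 1.38 windows each. ACGTG alone was in 35.5% of the windows of the 35 genes and in 21.4% of all windows. The stretches below are chosen examples, printed only where a word occurred. They belong to 4 genes whose levels moved together over the libraries, as described further on, and to HIF1A, which did not follow them. Each lies before the start used by RefSeq and outside exons of GENCODE v29, and runs 5′ to 3′ on the gene's strand. Capitals mark the core words of either strand (CACGT and CACGC are the words read on the other strand; CACGTG holds the word on both strands at once). They are matches of letters only. PFKM, PFKFB3, PFKFB4, ENO2, LDHB, PDK1, ANKRD37 and KDM3A also had a word in at least 1 window and did not follow the shared pattern. HK3 and EGLN3 did not follow it and had no word. PGAM1 and P4HA2 followed it and had none. A link between words and pattern was not tested.
GAPDH, chr12:6535142-6535263, plus strand: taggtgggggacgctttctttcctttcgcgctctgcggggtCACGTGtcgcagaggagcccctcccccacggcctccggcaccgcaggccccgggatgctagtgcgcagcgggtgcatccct
PGK1, chrX:78103998-78104173, plus strand: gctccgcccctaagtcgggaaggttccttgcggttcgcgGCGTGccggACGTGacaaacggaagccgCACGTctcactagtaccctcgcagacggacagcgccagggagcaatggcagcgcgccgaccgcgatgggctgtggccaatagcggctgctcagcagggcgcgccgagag
LDHA, chr11:18394313-18394387, plus strand: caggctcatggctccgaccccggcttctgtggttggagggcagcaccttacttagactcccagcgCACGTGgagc
BNIP3, chr10:131982014-131982173, minus strand: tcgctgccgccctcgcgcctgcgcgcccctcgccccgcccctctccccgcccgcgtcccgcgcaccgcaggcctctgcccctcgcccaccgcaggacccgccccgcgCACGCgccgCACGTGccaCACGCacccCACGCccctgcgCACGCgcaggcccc
HIF1A, chr14:61695263-61695512, plus strand: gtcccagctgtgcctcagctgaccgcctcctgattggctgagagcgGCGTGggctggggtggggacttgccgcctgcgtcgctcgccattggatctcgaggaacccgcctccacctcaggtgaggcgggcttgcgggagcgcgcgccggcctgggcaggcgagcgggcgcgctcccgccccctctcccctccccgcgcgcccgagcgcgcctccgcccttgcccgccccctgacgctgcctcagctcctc
The BNIP3 stretch carries 6 overlapping or separate words within its 160 bases, PGK1 carries 3 in 176 bases and HIF1A carries 1 in 250 bases. GAPDH (122 bases) and LDHA (75 bases) each carry 1 CACGTG, counted as 2 words.

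No difference between the media was detected in any glycolytic or hypoxia gene of the macrophages. The comparison asks whether tumor SPP1 alters the macrophages that take up its medium. None of the 35 genes passed an adjusted p below 0.05 (edgeR quasi-likelihood test, Benjamini-Hochberg over all genes; smallest adjusted p = 0.742), where 0% of the 13555 genes tested passed. At an unadjusted p below 0.05 the count was also 0 of 35, against 6.85% of all genes. That count rested on the libraries used. Without shSPP1#2 replicate 3 it was 9 of 35 (SLC2A3, HK2, ALDOC, ENO2, BNIP3, BNIP3L, EGLN3, ADM and P4HA1), against 6.2% of all genes, and without shSPP1#2 replicate 2 it was 4 (SLC2A1, TPI1, PGAM1 and PKM), against 8.95%. Without any other single library it was 0 to 3, against 4.01% to 7.60% of all genes. In no case did a gene of the 35 pass after adjustment. DESeq2 called 0 of the 28 members to which it gave an adjusted p, leaving 7 without one, and limma-voom called 0 of 35. Both had 0 of the 35 at an unadjusted p below 0.05. Over all genes that share was 2.88% of 17480 genes with DESeq2 and 6.80% with limma-voom. At an adjusted p below 0.05, DESeq2 called 13 of all genes and limma-voom 1.

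The intervals limit the size of a change. For 29 of the 35 genes the 95% interval of the log2 fold change (shSPP1#2 minus shNC) lay within 0.25 of 0, and for 33 within 0.5; PFKM and EGLN3, the least abundant, were outside. The median of the 35 log2 fold changes was -0.0037, and 16 genes were higher and 19 lower, beside a median of -0.00030 and 49.9% higher over all genes tested. With single libraries left out in turn, 20 of the 35 log2 fold changes took both signs.

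Glucose uptake came first in this order. In order of replicate number, SLC2A1 measured 110.8, 137.8 and 114.2 FPKM with shNC medium and 112.6, 133.8 and 104.1 FPKM with shSPP1#2 medium. Both groups had their highest value in replicate 2 and overlapped throughout. The log2 fold change was -0.054 with a standard error of 0.085 (edgeR adjusted p = 0.949). It was -0.17 without shSPP1#2 replicate 2 and 0.058 without shNC replicate 2. SLC2A3, the high-affinity carrier, ranged from 16.2 to 21.5 FPKM and had a log2 fold change of 0.045.

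Of the 9 upper glycolysis genes, 5 were higher and 4 lower, from -0.11 for PFKM to 0.065 for HK2. ALDOA measured 1035, 1099.7 and 1012 FPKM with shNC medium and 1032, 1125 and 1018 FPKM with shSPP1#2 medium. These ranges coincided, and the log2 fold change was 0.0074 with a standard error of 0.053. PFKL had the smallest p of this group, with 78.4, 82.4 and 83.2 FPKM against 84.8, 88.1 and 81.8 FPKM. Its shSPP1#2 replicate 3 lay below 2 of the shNC libraries, and the log2 fold change was 0.060 (95% interval -0.041 to 0.16, edgeR adjusted p = 0.882). HK1, HK2, HK3, GPI (the isomerase of glucose phosphate), PFKP and ALDOC stayed within 0.065 of 0 on the log2 scale.

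Regulation of phosphofructokinase showed no larger difference. PFKFB4 measured 38.2, 44.4 and 43.5 FPKM with shNC medium and 35.7, 41.4 and 42.1 FPKM with shSPP1#2 medium. The lowest value of each group was replicate 1, and the groups overlapped (log2 fold change -0.089, 95% interval -0.22 to 0.041, edgeR adjusted p = 0.854). PFKFB3 ranged from 22.2 to 23.7 FPKM and had a log2 fold change of -0.015.

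Lower glycolysis held the extremes among the core enzymes, in both directions. GAPDH measured 1424, 1514 and 1388 FPKM with shNC medium and 1399.6, 1641 and 1300.4 FPKM with shSPP1#2 medium. Its shSPP1#2 libraries enclosed all shNC values, and the log2 fold change was 0.00049 with a standard error of 0.070. It was -0.11 without shSPP1#2 replicate 2 and 0.081 without shSPP1#2 replicate 3. ENO2 had the smallest p of the 35 genes, with 49.9, 54.7 and 56.6 FPKM against 58.4, 63.8 and 54.0 FPKM. Its shSPP1#2 replicate 3 fell below 2 of the shNC libraries; the log2 fold change was 0.12 (95% interval -0.0060 to 0.25, edgeR adjusted p = 0.742). Leaving out shSPP1#2 replicate 2 gave 0.052 and leaving out shSPP1#2 replicate 3 gave 0.19, the extremes of the 6 single-library omissions.

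TPI1, the triose phosphate isomerase, had the lowest log2 fold change of the 35 genes, -0.11 (95% interval -0.23 to 0.0070, edgeR adjusted p = 0.751), and ranged from 251.5 to 303.4 FPKM. Leaving out shSPP1#2 replicate 2 gave -0.16 and leaving out shNC replicate 2 gave -0.049, again the extremes. PGAM1, the phosphoglycerate mutase, measured 291.6, 295.1 and 292.0 FPKM with shNC medium and 268.8, 288.5 and 278.0 FPKM with shSPP1#2 medium. All its shSPP1#2 values were below all shNC values in FPKM, though not in CPM (counts scaled to library size, here with TMM, the trimmed mean of M-values). The log2 fold change was -0.079 (95% interval -0.17 to 0.015, edgeR adjusted p = 0.788). PGK1, ENO1 and PKM had log2 fold changes of -0.016, -0.020 and -0.079.

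At the end of the pathway, LDHA measured 327.1, 342.6 and 324.6 FPKM with shNC medium and 329.2, 340.5 and 315.8 FPKM with shSPP1#2 medium. The groups overlapped, with a log2 fold change of -0.014 (95% interval -0.12 to 0.088). LDHB measured 287.1, 277.9 and 278.4 FPKM against 277.7, 269.7 and 275.7 FPKM. Its groups did not overlap in either scale, but the gap between the nearest libraries was under 1 FPKM and the log2 fold change was -0.040 with a standard error of 0.041 (edgeR adjusted p = 0.903). LDHB and PGAM1 were the 2 of 35 genes whose groups did not overlap in FPKM, both lower in shSPP1#2 medium, where 5.05% of all genes tested lay apart in that direction. In TMM-scaled CPM it was LDHB alone, 1 of 35, against 5.5% of all genes.

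PDK1, the kinase that holds pyruvate back from mitochondria, measured 9.41, 9.56 and 9.07 FPKM with shNC medium and 10.6, 9.64 and 9.29 FPKM with shSPP1#2 medium. Only shSPP1#2 replicate 1 stood clear of the rest, and the log2 fold change was 0.064 (edgeR adjusted p = 0.902). It was -0.0026 without that library and 0.10 without shSPP1#2 replicate 3. SLC16A3, the lactate exporter, ranged from 194.9 to 215.6 FPKM, with a log2 fold change of -0.0054.

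**Figure D3:**
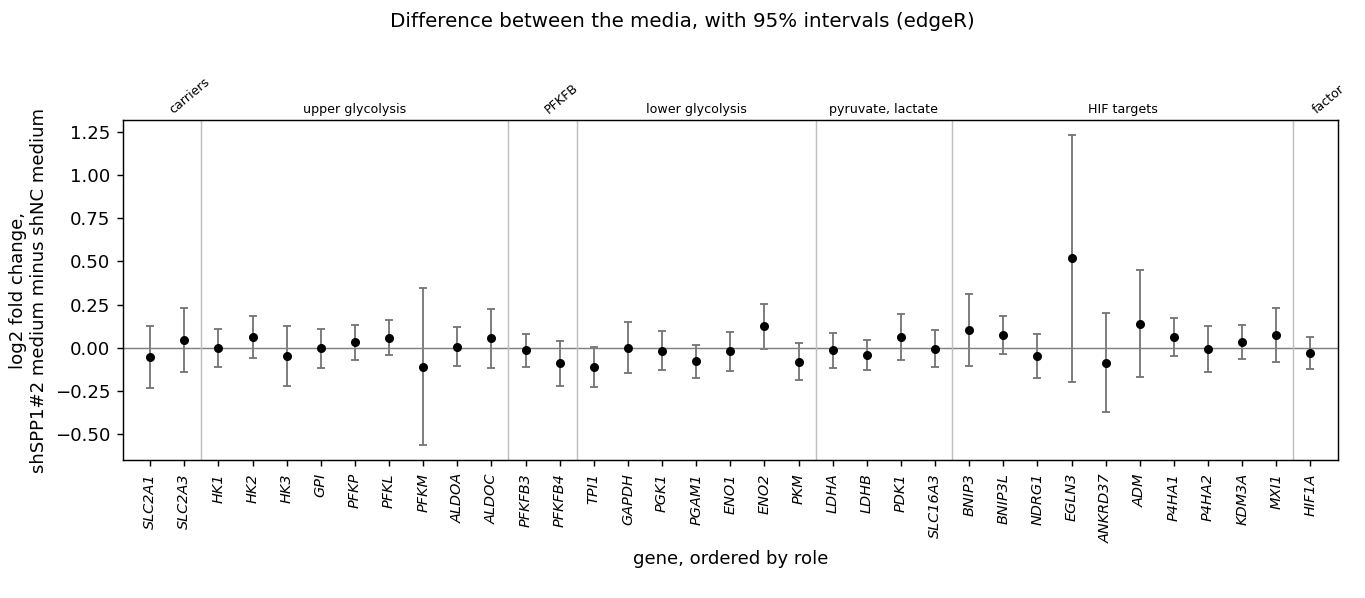
Points give the log2 fold change of each gene, shSPP1#2 medium minus shNC medium, and bars its 95% interval from the edgeR fit (3 libraries a group). Every interval includes 0; those of EGLN3 and PFKM are the widest, and 29 of 35 lie within 0.25 of 0.

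Of the 10 HIF targets outside the pathway, 7 had a positive and 3 a negative log2 fold change, and the median was 0.069. Of the 18 core enzymes 7 were positive and 11 negative, and the median was -0.0088. Neither median was tested. That of the HIF targets fell to 0.0067 without shSPP1#2 replicate 2 and reached 0.13 without shSPP1#2 replicate 3. It was also 0.042 without shNC replicate 1, 0.082 without shNC replicate 2 and 0.040 without shNC replicate 3. It was 0.039 without shSPP1#2 replicate 1 and 0.035 with both replicate 2 libraries left out. The core median lay between -0.059 (without shSPP1#2 replicate 2) and 0.030 (without shNC replicate 2), so its sign depended on the libraries used.

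NDRG1, a stress-responsive cytosolic protein, was the most abundant of these targets, with 210.7, 247.2 and 218.3 FPKM in shNC medium and 218.7, 231.0 and 206.0 FPKM in shSPP1#2 medium. The groups overlapped (log2 fold change -0.046, 95% interval -0.17 to 0.083). EGLN3, an oxygen-sensing prolyl hydroxylase that marks HIF for destruction, had the smallest p of the 10. It measured 0.35, 0.33 and 0.18 FPKM against 0.50, 0.43 and 0.26 FPKM, from 10 to 27.2 estimated counts a library. Its log2 fold change of 0.52 had a standard error of 0.34 (95% interval -0.19 to 1.23, edgeR adjusted p = 0.836), and it was 0.29 without shNC replicate 3 and 0.75 without shSPP1#2 replicate 3. A difference was not detectable with these libraries and counts.

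BNIP3 and BNIP3L, receptors that direct mitochondria to autophagy, had log2 fold changes of 0.10 (95% interval -0.11 to 0.31) and 0.074 (-0.035 to 0.18). With single libraries left out, BNIP3 ran from -0.044 (shSPP1#2 replicate 2) to 0.23 (shNC replicate 2), and BNIP3L from 0.016 (shSPP1#2 replicate 2) to 0.13 (shSPP1#2 replicate 3). ADM, the secreted peptide adrenomedullin, ranged from 10.8 to 17.8 FPKM, with a log2 fold change of 0.14 (95% interval -0.17 to 0.45). It was 0.023 without shNC replicate 3 and 0.35 without shSPP1#2 replicate 3. The collagen prolyl hydroxylase subunits P4HA1 and P4HA2 measured 0.064 and -0.0081, the histone demethylase KDM3A 0.032, the MYC antagonist MXI1 0.074 and ANKRD37 -0.086. The smallest edgeR adjusted p of the 10 was 0.836.

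HIF1A measured 65.8, 66.8 and 70.3 FPKM with shNC medium and 65.6, 65.4 and 68.4 FPKM with shSPP1#2 medium. Replicate 3 was the highest of each group, and the groups overlapped (mean 67.6 ± 2.38 against 66.5 ± 1.64 FPKM, SD, n = 3). The log2 fold change was -0.031 (95% interval -0.12 to 0.061, edgeR adjusted p = 0.940). These are levels of RNA and do not measure the protein.

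Differences among the libraries of one medium followed a shared pattern over most of these genes. The measure used for it, replicate 2 highest in both groups, was chosen after the values were seen. In TMM-scaled log2 CPM, replicate 2 was the highest library of both groups at once for 24 of the 35 genes (68.6%), against 15.9% of all genes tested and 30.5% of the 834 genes at or above the median abundance of the 35. The 24 included 14 of the 18 core enzymes, 7 of the 10 HIF targets, both glucose carriers and SLC16A3. Replicate 1 was highest in both groups for 2 of the 35 (12.7% of all genes) and replicate 3 for 1 (11.6%). The replicate 2 pattern was not confined to the 35. Among related genes taken up below, it held for 12 of 30 further hypoxia targets and 4 of 12 oxygen-sensing genes. It also held for 4 of 15 further glycolysis genes and 5 of 11 for pyruvate entry to mitochondria. Pentose phosphate and glycogen genes had it in 3 of 7 each. In shNC medium, replicate 2 exceeded the mean of the other replicates by a median of 0.12 on the log2 scale over the 35 genes, and in shSPP1#2 medium by 0.15; over all genes tested the medians were 0.0029 and -0.0018. Between the media, the median absolute log2 fold change of the 35 genes was 0.054, against 0.062 over all genes tested. That value compares groups of 3 libraries, so it is not a like measure to the single-library differences of replicate 2. In shSPP1#2 medium, replicate 3 was also the lowest library for 27 of 35 genes (32.8% of all genes).

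BNIP3 shows this pattern, and ADM shows how another gene varied over the same libraries. BNIP3 measured 34.1, 44.1 and 35.4 FPKM with shNC medium and 39.1, 48.1 and 34.9 FPKM with shSPP1#2 medium. Replicate 2 was the highest of each group, and shNC replicate 2 exceeded 2 of the 3 shSPP1#2 libraries. ADM measured 13.7, 16.6 and 11.7 FPKM against 17.8, 17.6 and 10.8 FPKM, with replicate 3 the lowest of each group. Replicates 1 and 2 of its shSPP1#2 group were nearly level. Replicate 1 was higher in FPKM and replicate 2 by a small margin in log2 CPM (0.296 and 0.303 above the gene's average). ADM is 1 of the 24 only by that margin. PFKL is 1 of them by a smaller margin in shNC medium (0.0034 in replicate 2 and 0.0030 in replicate 3). Over other scalings the count ran from 21 of 35 in log2(FPKM + 0.1) (11.1% of all genes) to 25 with RLE scaling (16.1%). The 11 genes that did not follow were HK3, PFKM, PFKFB3, PFKFB4, ENO2, LDHB, PDK1, EGLN3, ANKRD37, KDM3A and HIF1A. BNIP3 and ADM were chosen for this paragraph after their values were seen.

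**Figure D4:**
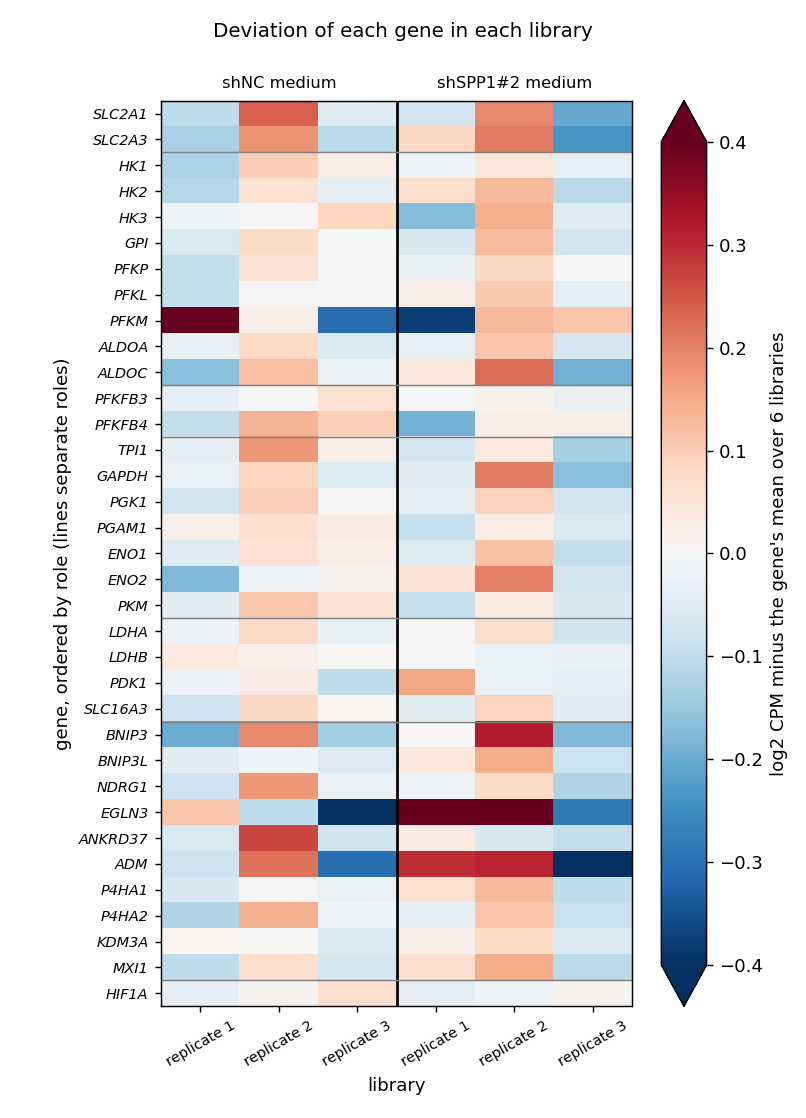
Color gives log2 CPM relative to the average of that gene in all libraries (red above, blue below; values past 0.4 share the end color), with genes in rows by role and libraries in columns. The columns of replicate 2 are red for most rows in both groups, 24 of 35 genes being highest there in each, while no block of rows separates the media.

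The replicate 2 libraries had the lowest totals of their groups, as given above, and the part of depth in this pattern was not tested. With each library's trend over GC content and transcript length removed, 23 of 35 genes had replicate 2 highest in both groups. The share was 16.4% among the 13457 genes with such values. That setting was chosen after the values were seen. The part of GC content and length in the pattern was not tested. The summed macrophage markers ran from 2618 to 2821 FPKM in shNC medium and from 2553 to 2628 FPKM in shSPP1#2 medium. The highest sum of each group was that of replicate 2. Of the 14 markers tested, 5 had replicate 2 highest in both groups in log2 CPM. The labels do not say what, if anything, libraries of the same number share. In an edgeR fit with replicate number as a term, chosen after the values were seen, 6 of the 35 genes passed for that term, against 0.398% of all genes tested. That share was not taken among genes of similar abundance. In bulk RNA, a change in every cell and a change in the share of cells cannot be told apart.

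Other genes of oxygen sensing and carbon flow also had no call. Of 12 genes of the oxygen-sensing machinery, 6 were higher and 6 lower; ELOC, a subunit of the ubiquitin ligase that removes HIF, had a log2 fold change of -0.15 (95% interval -0.26 to -0.051, edgeR adjusted p = 0.516). Of 30 tested further hypoxia targets, 23 were higher and 7 lower, with a median of 0.043 and 0 called. The smallest adjusted p-values there were 0.142 for the lipoprotein receptor VLDLR (0.23), 0.509 for the secreted STC2 (0.27), 0.583 for TXNIP, an inhibitor of glucose uptake (0.13), and 0.633 for the collagen cross-linker LOX (0.24), each with its log2 fold change from the edgeR fit in parentheses.

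Further glycolysis and gluconeogenesis genes numbered 15 tested of 23, with 7 higher, 8 lower and a median of -0.00025. The mitochondrial PCK2, which makes phosphoenolpyruvate, was at 0.24 (95% interval 0.12 to 0.35, edgeR adjusted p = 0.276). Of 11 tested genes for pyruvate entry to mitochondria, 9 were higher and 2 lower, with PDHX, a structural subunit of pyruvate dehydrogenase, at 0.11 and PDK2, a kinase that restrains it, at -0.20 (edgeR adjusted p = 0.706 and 0.633). All 7 pentose phosphate genes (median -0.018) and all 7 glycogen genes (median 0.014) had intervals that included 0.

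Some of these genes have pseudogenes or overlapping exons in the annotation. Whether this affected their counts was not tested. GENCODE v29 (GRCh38) names 62 pseudogenes after GAPDH, 39 after BNIP3 and 13 after PGAM1, none with a row of its own in the deposited counts. Exons of another gene on the same strand cover 42.3% of the exonic bases of ALDOA and 33.4% of those of LDHB. For ANKRD37, 35.2% is covered by UFSP2 on the opposite strand, and the strand setting of the counting was not given.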

How the data were processed

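The authors deposited estimated counts and FPKM values per gene, 1 column per library. Per the submitters' processing notes, build GRCh38.p13 and the tools HISAT2 2.0.4, Bowtie2 2.2.5 and RSEM were used, with no role stated. The sources used here give neither a filter nor how length and total were defined for the deposited FPKM. The FPKM lost 20 stray lines that held no values. RSEM divides reads between similar genes, so counts of paralogs and pseudogene parents can shift.

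After rounding, counts were filtered with filterByExpr and scaled by TMM. The test was edgeR's quasi-likelihood F (version 4.0.16 under R 4.3.3) on all 6 libraries without a block, and genes were called at an adjusted p below 0.05 over all genes tested. The script was tested on simulated data. Alternatives used other scalings and filters, a replicate block, DESeq2 1.42.0, limma 3.58.1 (voom, and log2(FPKM + 1) or log2(FPKM + 0.1)) and single libraries left out. Log2 CPM used a prior count of 2. Each library of 18113591 to 20626346 counts gave the 35 genes a median standard error of 0.055 on the log2 scale. GENCODE v29 gave a length and GC value for 98.63% of genes. The members and lists were chosen with earlier results of these data known. By rule, values in every library are given for HIF1A, for the most abundant gene and the gene of smallest p in each role, and for genes whose groups do not overlap; the other lists name at most 4 genes of smallest p.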

Additional observations from a re-analysis of the deposited data

How the results depend on the processing

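None of the 35 genes was called under any of the 18 other settings, the replicate block, DESeq2, limma and single libraries left out among them, although 7 had no adjusted p under DESeq2 and EGLN3 fell out of the filter at a CPM of at least 1. The number of genes called over the whole table, 0 in the edgeR fit, was 18 without a low-count filter, 59 with the replicate block, 13 with DESeq2, 1 with limma-voom, 1 with limma on log2(FPKM + 0.1) and 7 with both replicate 2 libraries left out, an alternative chosen after seeing the data; it ran from 1 to 10 with single libraries left out. The cause was not tested. Replicate numbers were not taken to pair the samples, because the labels do not say that they mark a shared batch. Over the 10635 genes with a log2 CPM of at least 2, deviations of same-numbered libraries correlated at 0.22, 0.29 and 0.092 (replicates 1, 2 and 3). Over all genes tested the correlations were 0.073, 0.096 and 0.048. Among the 10635 genes, every library except shSPP1#2 replicate 3 matched its own number best in the other group. With the replicate block, PFKFB4, TPI1, PGAM1, ENO2 and PKM had an unadjusted p below 0.05 (5 of 35, against 10.8% of all genes) and the smallest adjusted p of the 35 was 0.20. Of 594 log2 fold changes of single genes over these settings, 560 moved by less than 1 standard error. The promoter share fell from 64.5% to 35.5% with ACGTG alone, as the rule admits fewer words. EGLN3 and PFKM had the fewest counts of the 35, 10 to 67.5 a library, and the widest intervals; depth and spread between libraries were not separated.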

Other observations

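In the edgeR fit with replicate number and medium as terms, 54 of 13555 genes passed an adjusted p below 0.05 for the replicate number. The 6 of them among the 35 genes were SLC2A1 (edgeR adjusted p = 0.0019), BNIP3 (0.0071), ADM (0.019), GAPDH (0.025), PFKFB4 (0.036) and SLC2A3 (0.042). Replicate 2 exceeded the mean of the other numbers by 0.32 for SLC2A1, 0.38 for BNIP3, 0.22 for GAPDH and 0.29 for SLC2A3 on the log2 scale. ADM and PFKFB4 differed in form. For ADM the difference from replicate 1 was 0.15 in replicate 2 and -0.48 in replicate 3, and PFKFB4 had replicates 2 and 3 above replicate 1 by 0.22 and 0.20. The same 6 genes passed with RLE and upper-quartile scaling, and SLC2A3 did not with total counts only. The labels do not state what a replicate number marks.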
